A study of Mus musculus with 6 samples.

Results

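The 10 genes described here encode the 5 NF-κB subunits (*Nfkb1*, *Nfkb2*, *Rela*, *Relb* and *Rel*), the inhibitory IκB proteins IκBα (*Nfkbia*) and IκBε (*Nfkbie*), the nuclear IκB-like protein Bcl3 (*Bcl3*), the ubiquitin-editing enzyme A20 (*Tnfaip3*) and the kinase NIK (*Map3k14*). They were taken by gene symbol as a known pathway list, and all 10 were found, each as 1 entry of its own, among the 22513 entries of the expression table. RNA was measured in stroma of fetal thymus lobes from WT and *Jmjd6*-/- mice on the C57BL/6 background, taken at E15.5 according to the methods of the study. *Jmjd6* encodes a nuclear hydroxylase of lysine residues, and *Jmjd6*-/- mice lack it in all tissues. All lobes were first cultured for 4 days with 2-deoxyguanosine (2-DG), a nucleoside toxic to developing thymocytes, and were then left unstimulated or given RANKL, a cytokine of the tumour necrosis factor family, for 4 days. There was 1 library each of unstimulated WT and unstimulated *Jmjd6*-/- stroma, and 2 libraries each of RANKL-stimulated WT and RANKL-stimulated *Jmjd6*-/- stroma. The labels call the repeated libraries technical duplicates and the methods call them samples, so the p-values below may measure technical spread only.

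NF-κB proteins bind DNA as dimers. In the canonical pathway, dimers such as p50 (from *Nfkb1*) with RelA or c-Rel are held in the cytoplasm by IκB proteins until these are phosphorylated and degraded, whereas in the non-canonical pathway NIK accumulates and triggers the processing of p100 (from *Nfkb2*) to p52, which pairs with RelB. Several of these genes are themselves transcribed in response to NF-κB, among them *Nfkbia*, *Nfkbie* and *Tnfaip3*, whose products restrain the pathway, and *Nfkb2* and *Relb*. In the thymus, RANK, CD40 and the lymphotoxin β receptor signal through both arms in medullary thymic epithelial cells (mTECs), and RelB and NIK are needed for these cells to form.

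The κB motif is the sequence that NF-κB dimers recognize, and the promoters that hold a copy are shown because they differ in the number and place of the copies. RefSeq promoter sequences (GRCm38.p6) were searched on both strands over the 250 bases before each start site for the κB consensus motif GGGRNNYYCC. In it R is A or G, Y is C or T and N is any base. Overlapping matches were counted as 1 stretch, and near matches, which the windows also hold, were not counted. Of the 10 genes 8 had such a window, *Nfkb1* and *Relb* being the others. *Nfkbia*, *Nfkbie*, *Tnfaip3*, *Rel* and *Nfkb2* held a match, whereas *Rela*, *Map3k14* and *Bcl3* held none in this window. Each sequence runs 5′ to 3′ on the strand of its gene, with the matches in capitals. They lie at chr12:55492648-55492897 (minus strand) for *Nfkbia*, chr17:45555450-45555699 (plus strand) for *Nfkbie*, chr10:19015411-19015547 (minus strand) for *Tnfaip3*, chr11:23770971-23771120 (minus strand) for *Rel* and chr19:46304695-46304724 (plus strand) for *Nfkb2*. The windows of *Nfkbia* and *Nfkbie* are shown whole, and those of *Tnfaip3* and *Rel* as far as they are clear of annotated exons or in their last 150 bases. The stretches of *Nfkbia*, *Nfkbie*, *Tnfaip3* and *Rel* overlap no annotated exon, and that of *Nfkb2* is limited to 30 bases because the window lies in an exon of a longer transcript.
Nfkbia: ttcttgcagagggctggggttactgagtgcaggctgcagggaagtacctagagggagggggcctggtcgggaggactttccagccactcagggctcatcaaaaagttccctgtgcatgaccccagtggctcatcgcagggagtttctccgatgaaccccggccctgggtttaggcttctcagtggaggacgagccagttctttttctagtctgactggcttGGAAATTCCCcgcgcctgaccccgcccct
Nfkbie: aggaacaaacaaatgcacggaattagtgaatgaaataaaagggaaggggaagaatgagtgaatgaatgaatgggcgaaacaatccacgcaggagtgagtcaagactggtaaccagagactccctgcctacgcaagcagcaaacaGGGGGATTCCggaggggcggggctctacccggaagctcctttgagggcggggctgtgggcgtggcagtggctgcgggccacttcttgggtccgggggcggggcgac
Tnfaip3: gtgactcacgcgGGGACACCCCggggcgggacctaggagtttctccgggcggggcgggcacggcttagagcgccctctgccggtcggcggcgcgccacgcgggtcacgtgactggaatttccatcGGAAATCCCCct
Rel: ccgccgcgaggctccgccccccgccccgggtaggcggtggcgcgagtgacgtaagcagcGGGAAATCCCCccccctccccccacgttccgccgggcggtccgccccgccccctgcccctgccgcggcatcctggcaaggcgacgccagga
Nfkb2: cacGGGAATTCCCCccctcggggggccgaa

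*Nfkbia* held 1 match, which began 29 bases before the start, and *Nfkbie* held 1 match, which began 106 bases before it. *Tnfaip3* held 2 separate matches, beginning 125 and 12 bases before the start. *Rel* and *Nfkb2* each held a stretch of 11 bases in which 2 matches overlapped, and *Nfkb2* held another match, GGGGCTTTCC, beginning 11 bases before the start. These counts are for the most upstream RefSeq start of each gene. Downstream starts were also listed for *Tnfaip3* and *Nfkb2*, and a match stood before both of those of *Nfkb2* and before none of *Tnfaip3*. Of all 32851 RefSeq windows of this length, 7.25% held a match, and among windows with a GC content of at least 64.8%, the median of the windows of these genes, 12.2% did. A match describes the letters of the window only, and binding was not measured in these libraries.

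Libraries matched their labels. *Jmjd6* stood at 26.3 FPKM, a fragment count scaled to transcript length and library depth, in unstimulated WT stroma and at 25.9 and 32.5 FPKM in RANKL-stimulated WT stroma, against 1.32, 1.96 and 1.78 FPKM in the 3 *Jmjd6*-/- libraries, and *Aire*, the mTEC gene that RANKL induces, was below 0.5 FPKM in both unstimulated libraries and between 67.1 and 79.7 FPKM in the 4 RANKL libraries. Thymic epithelial genes were abundant, with *Prss16* between 2505 and 4345 FPKM and *Foxn1* between 80.8 and 116.9 FPKM. The estimated depth was between 15600000 and 30200000 fragments per library. The WT RANKL libraries stood further apart than the *Jmjd6*-/- RANKL libraries, with a median absolute difference of 0.28 against 0.08 on the log2 scale over 12587 genes.

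All 10 genes were expressed in every library. Mean FPKM over the 6 libraries, which is per length and so allows levels of genes to be compared, ran from 5.28 for *Rel*, above 40.9% of the 15894 genes tested, to 114 for *Nfkbia*, above 95.9% of them. The order depended on stimulation. In both unstimulated libraries *Nfkb1* was the highest, followed by *Nfkbia*, *Nfkb2* and *Map3k14*, then by *Relb* and *Rela*, whose order differed between the 2 libraries, then by *Nfkbie*, by *Bcl3* and *Tnfaip3*, whose order also differed, and by *Rel* as the lowest. In all 4 RANKL libraries *Nfkbia* was the highest, followed by *Nfkb1*, *Nfkb2*, *Relb* and *Nfkbie*. Below these, *Rela* and *Map3k14* changed places between RANKL libraries, *Bcl3* lay below *Rela* in 4 and below *Map3k14* in 3 of them, and *Tnfaip3* and then *Rel* were the lowest. Neighbours in either order were not tested against each other.

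**Figure D1:**
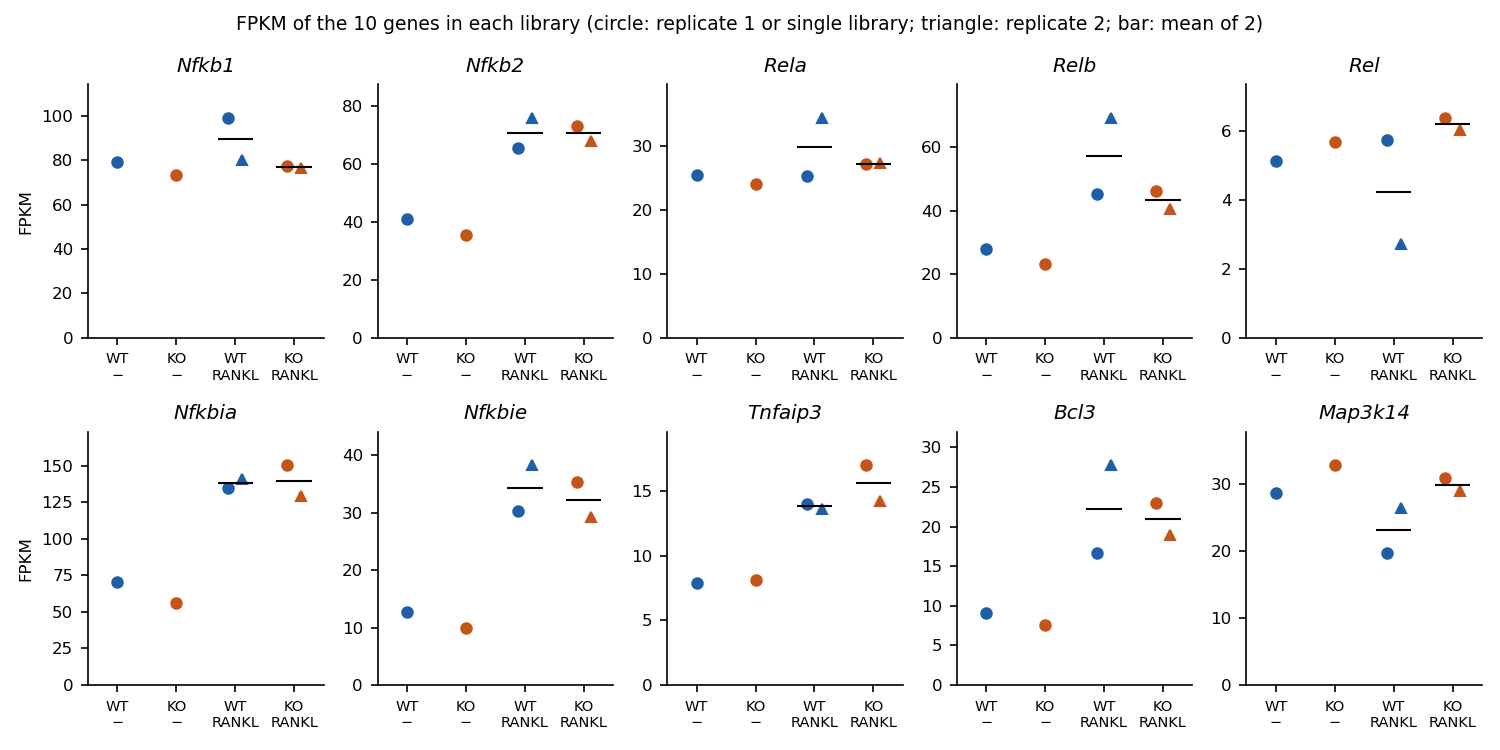
FPKM of the 10 genes in each of the 6 libraries, with 1 panel per gene and 1 point per library, blue for WT and orange for *Jmjd6*-/- (KO), unstimulated (−) and with RANKL, circles for replicate 1, triangles for replicate 2 and bars for the mean of 2. *Nfkb2*, *Relb*, *Nfkbia*, *Nfkbie*, *Tnfaip3* and *Bcl3* lie higher in all 4 RANKL libraries than in both unstimulated ones, and the 2 WT RANKL points of *Rel*, at 5.74 and 2.71 FPKM, lie far apart.

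The first comparison asked which of these genes changed with RANKL. *Nfkb2*, *Relb*, *Nfkbia*, *Nfkbie*, *Tnfaip3* and *Bcl3* rose, by between 1.83 and 2.93 times over both genotypes, and none of the 10 fell. *Nfkb1*, *Rela*, *Rel* and *Map3k14* did not pass the test. The effect was estimated with limma over all 6 libraries with genotype as a term, on log2(FPKM + 0.1), a scale that understates changes of low genes, and a gene was called at a Benjamini-Hochberg adjusted p under 0.05. Of all 15894 genes tested, 10.5% were called higher and 4.11% lower by this rule, against 6 and 0 of the 10 genes. The same 6 genes had all 4 RANKL libraries above both unstimulated libraries, as did 18.9% of all genes. The median log2 change was 0.88 over the 10 genes and -0.02 over all genes. In these bulk samples, a change in the number of cells of a type and a change in RNA per cell cannot be told apart.

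**Figure D2:**
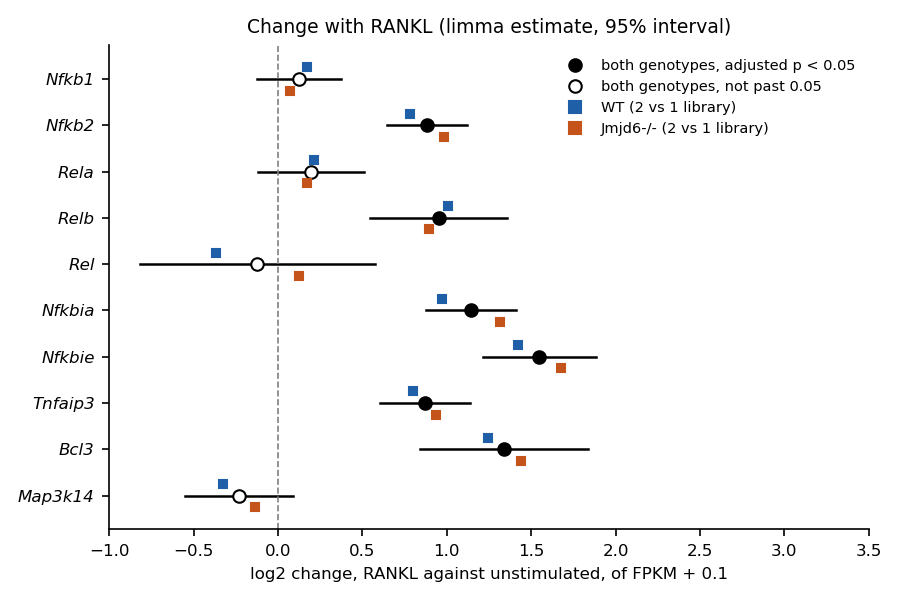
Log2 change with RANKL for each gene, as the limma estimate over both genotypes with its 95% interval (circles, filled where the adjusted p was under 0.05) and as the change within WT (blue squares) and within *Jmjd6*-/- (orange squares) stroma, each from 2 RANKL libraries and 1 unstimulated library. The intervals of 6 genes lie above 0, and those of *Nfkb1*, *Rela*, *Rel* and *Map3k14* include 0.

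Among the subunits, those of the non-canonical pathway rose. *Nfkb2* (XLOC_009824, chr19:46304737-46327156, mm10), which encodes p100, stood at 41.1 and 35.6 FPKM in unstimulated WT and *Jmjd6*-/- stroma, at 65.6 and 76.1 FPKM in WT with RANKL and at 73.0 and 68.1 FPKM in *Jmjd6*-/- with RANKL. Its RANKL values did not overlap with the unstimulated ones, and it rose by 0.88 on the log2 scale (SE 0.099, limma adjusted p = 0.00211). *Relb* (XLOC_018216, chr7:19606222-19629438), whose product pairs with p52, stood at 27.8 and 23.2 FPKM without RANKL, at 45.3 and 69.4 FPKM in WT with RANKL and at 46.2 and 40.7 FPKM in *Jmjd6*-/- with RANKL. The second WT library was the highest, the other 3 RANKL libraries lay close together, and *Relb* rose by 0.95 on the log2 scale (SE 0.17, limma adjusted p = 0.0130). *Nfkb2* shares 299 of its 4584 annotated exonic bases with *Psd* on the opposite strand, which stood between 2.81 and 4.16 FPKM, and 531 with the noncoding RNA gene AC114539.1. As the kit described keeps no strand, reads of these bases could be counted for either gene. The span of the *Nfkb2* entry also runs past the annotated end of the gene, at base 46312385. Whether reads from beyond that end entered its values was not tested.

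The canonical subunits did not pass the test. *Nfkb1* (XLOC_013157, chr3:135584655-135691547), which encodes p105 and p50, stood at 79.2 and 73.3 FPKM without RANKL, at 99.3 and 80.1 FPKM in WT with RANKL and at 77.5 and 76.6 FPKM in *Jmjd6*-/- with RANKL. Only the first WT RANKL library was clearly higher, and the log2 change of 0.12 had a 95% interval from -0.13 to 0.37 (limma adjusted p = 0.477). *Rela* (XLOC_009558, chr19:5637490-5648130), which encodes p65, stood at 25.5 and 24.2 FPKM without RANKL, at 25.3 and 34.5 FPKM in WT with RANKL and at 27.2 and 27.4 FPKM in *Jmjd6*-/- with RANKL. Here the second WT RANKL library was the high one, and the log2 change of 0.19 had a 95% interval from -0.12 to 0.51 (limma adjusted p = 0.365). *Rel* (XLOC_003199, chr11:23741729-23770970), which encodes c-Rel, stood at 5.13 and 5.69 FPKM without RANKL, at 5.74 and 2.71 FPKM in WT with RANKL and at 6.39 and 6.03 FPKM in *Jmjd6*-/- with RANKL. The second WT RANKL library was the lowest of the 6, and the log2 change of -0.12 had a 95% interval from -0.82 to 0.57 (limma adjusted p = 0.812).

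The balance between subunits moved with these changes. The ratio of *Relb* to *Rela* FPKM was 1.09 and 0.962 without RANKL, 1.79 and 2.01 in WT with RANKL and 1.70 and 1.49 in *Jmjd6*-/- with RANKL. The ratio of *Nfkb2* to *Nfkb1* FPKM was 0.518 and 0.485 without RANKL, 0.661 and 0.949 in WT with RANKL and 0.941 and 0.889 in *Jmjd6*-/- with RANKL. Both ratios were higher in each RANKL library than in either unstimulated one, and no test was run on them. The transcripts of *Nfkb2* (59.4%) and *Nfkb1* (44.9%) lie far apart in GC content, with which the WT RANKL libraries differed, as described below. The part of GC content in this ratio was not tested. As a share of the summed FPKM of the 5 subunits, *Nfkb1* was the most abundant in every library, with 44.3% and 45.3% without RANKL and between 30.5% and 41.2% with RANKL. *Nfkb2* went from 23.0% and 22.0% to between 27.2% and 31.7%, and *Relb* from 15.6% and 14.3% to between 18.6% and 26.4%. *Rel* made up between 1.03% and 3.51% in all libraries.

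**Figure D3:**
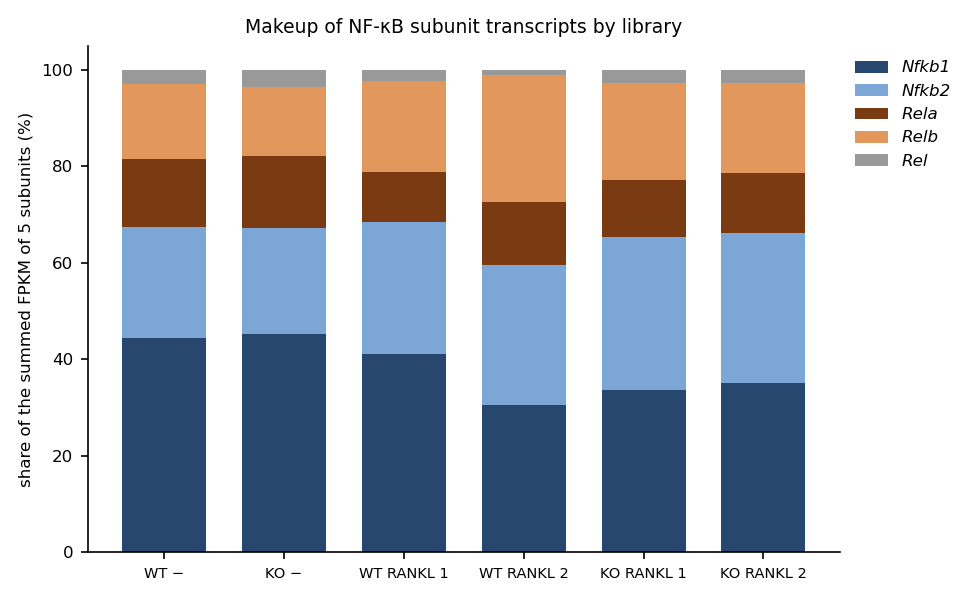
Share of the 5 NF-κB subunits in their summed FPKM (percent, stacked bars from 0) in each of the 6 libraries, with KO for *Jmjd6*-/- and − for unstimulated. *Nfkb1* holds 44.3% and 45.3% in the unstimulated libraries and 30.5% to 41.2% in the RANKL libraries, where *Nfkb2* and *Relb* take larger shares.

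The transcripts of the feedback inhibitors IκBα, IκBε and A20 rose. *Nfkbia* (XLOC_004447, chr12:55489409-55492647) stood at 70.4 and 56.0 FPKM without RANKL, at 135.0 and 140.9 FPKM in WT with RANKL and at 150.7 and 129.1 FPKM in *Jmjd6*-/- with RANKL. The 4 RANKL values lay close together, far above both unstimulated ones, with a rise of 1.14 on the log2 scale (SE 0.11, limma adjusted p = 0.00125). *Nfkbie* (XLOC_008284, chr17:45555716-45563168) stood at 12.6 and 9.99 FPKM without RANKL, at 30.2 and 38.4 FPKM in WT with RANKL and at 35.4 and 29.2 FPKM in *Jmjd6*-/- with RANKL. It rose by 1.55 on the log2 scale (SE 0.14, limma adjusted p = 0.000868), the largest estimate among the 10 genes. The ratio of *Nfkbie* to *Nfkbia* FPKM was 0.180 and 0.178 without RANKL and between 0.224 and 0.272 with RANKL, so that the IκBε transcript gained on the more abundant IκBα transcript in all 4 libraries. *Tnfaip3* (XLOC_001830, chr10:19000910-19015410), whose product A20 removes ubiquitin chains from signalling proteins, stood at 7.88 and 8.10 FPKM without RANKL, at 14.0 and 13.6 FPKM in WT with RANKL and at 17.0 and 14.3 FPKM in *Jmjd6*-/- with RANKL. The groups did not overlap, and *Tnfaip3* rose by 0.87 on the log2 scale (SE 0.11, limma adjusted p = 0.00368).

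*Bcl3* (XLOC_018226, chr7:19808462-19822755), whose product binds p50 or p52 dimers on DNA, stood at 9.04 and 7.64 FPKM without RANKL, at 16.7 and 27.8 FPKM in WT with RANKL and at 22.9 and 18.9 FPKM in *Jmjd6*-/- with RANKL. It rose by 1.34 on the log2 scale (SE 0.21, limma adjusted p = 0.00773), with the 2 WT libraries at either end of the RANKL values. Of its 2475 annotated exonic bases, 161 are shared with *Gm16175* on the opposite strand. *Map3k14* (XLOC_003807, chr11:103219764-103267401) stood at 28.7 and 32.9 FPKM without RANKL, at 19.7 and 26.5 FPKM in WT with RANKL and at 30.9 and 29.0 FPKM in *Jmjd6*-/- with RANKL. The 2 WT RANKL libraries were the lowest of the 6, and this gene, whose product is the kinase of the non-canonical pathway, did not pass the test, with a log2 change of -0.23 (95% interval from -0.55 to 0.09, limma adjusted p = 0.295). *Map3k14* shares 135 of its 6550 annotated exonic bases with *1700028N14Rik* on the same strand. Without the unstimulated WT or the unstimulated *Jmjd6*-/- library, 3 of the 10 genes passed the test, as *Relb* (adjusted p = 0.182 and 0.101), *Tnfaip3* (0.0523 and 0.0612) and *Bcl3* (0.0908 and 0.0944) no longer did, and without the filter on low values *Relb* (0.109) and *Bcl3* (0.0893) did not pass in limma.

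Within each genotype, both RANKL libraries exceeded the unstimulated library for all 6 rising genes. Their fold changes lay between 1.73 and 2.71 in WT and between 1.87 and 3.23 in *Jmjd6*-/- stroma. The log2 change in WT and *Jmjd6*-/- stroma was 0.78 and 0.99 for *Nfkb2*, 1.01 and 0.90 for *Relb*, 0.97 and 1.32 for *Nfkbia*, 1.42 and 1.68 for *Nfkbie*, 0.80 and 0.94 for *Tnfaip3*, and 1.24 and 1.44 for *Bcl3*. Thus 5 of the 6, all except *Relb*, had the larger value in *Jmjd6*-/- stroma, as did 36.8% of all genes called higher with RANKL. In the unstimulated libraries, 5 of the 6, all except *Tnfaip3*, stood lower in *Jmjd6*-/- than in WT stroma, by 0.21 to 0.34 on the log2 scale. By any amount, 55.8% of all genes called higher with RANKL did so. With 1 unstimulated library per genotype these values have no replicate check. Both counts use the same unstimulated libraries, and a lower unstimulated value in *Jmjd6*-/- stroma by itself enlarges its change, so they are not separate observations. In the test of the interaction between genotype and RANKL, none of the 10 genes passed in limma (adjusted p = 1.0 for each) or had an unadjusted p under 0.05. The same test called 0 of 15894 genes (0.0%), and 118 genes with a higher and 546 with a lower change in *Jmjd6*-/- stroma had an unadjusted p under 0.05. The interval of the interaction was wide, for example from -0.19 to 0.88 on the log2 scale for *Nfkbia*.

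The second comparison asked whether the genes differed between *Jmjd6*-/- and WT stroma under RANKL. None of the 10 passed the test in limma or had an unadjusted p under 0.05, whereas 0.516% of all genes tested were called higher and 1.82% lower in *Jmjd6*-/- stroma, 2.34% in all. The median log2 difference, *Jmjd6*-/- minus WT, was -0.02 over the 10 genes and 0.01 over all genes. *Nfkbia* was closely matched, with means of 139.9 ± 15.3 FPKM in *Jmjd6*-/- and 137.9 ± 4.18 FPKM in WT stroma (SD, n = 2 each), a log2 difference of 0.02 and a 95% interval from -0.29 to 0.32. *Nfkb2*, with means of 70.5 ± 3.43 and 70.8 ± 7.37 FPKM, had a log2 difference of -0.00 and an interval from -0.31 to 0.30. These intervals bound a difference of either gene, and they do not show that the levels were equal. For *Nfkbie*, *Bcl3*, *Rela* and *Tnfaip3* the log2 differences were -0.08, -0.05, -0.12 and 0.17.

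The estimates furthest from 0 were those of *Rel*, *Map3k14* and *Relb*. *Rel* had a log2 difference of 0.64 with an interval from -0.25 to 1.53 (limma adjusted p = 0.419). *Map3k14* had a log2 difference of 0.39 with an interval from -0.04 to 0.81 (unadjusted p = 0.0667, limma adjusted p = 0.308). Both genes had both *Jmjd6*-/- RANKL libraries above both WT RANKL libraries, as did *Tnfaip3*, so 3 of the 10 genes did so, against 24.5% of all genes. *Relb* had a log2 difference of -0.37 with an interval from -0.92 to 0.18 (limma adjusted p = 0.457), and its groups overlapped. *Nfkb1* was the 1 gene with both *Jmjd6*-/- libraries below both WT libraries, a pattern of 26.2% of all genes, with a log2 difference of -0.21 (limma adjusted p = 0.497).

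**Figure D4:**
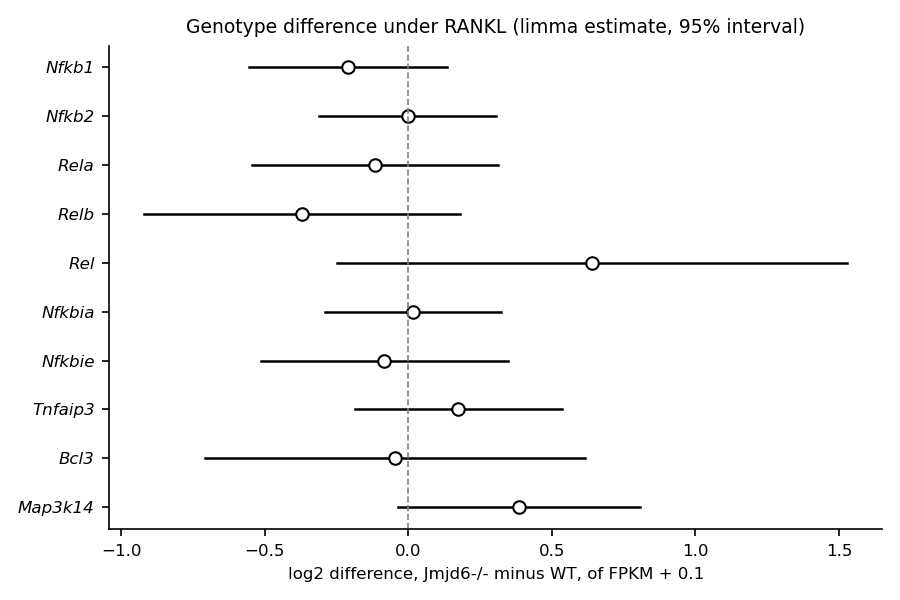
Log2 difference between *Jmjd6*-/- and WT stroma under RANKL (2 libraries each) for each gene, as the limma estimate (open circle) with its 95% interval (line). All 10 intervals include 0, and the interval of *Rel*, from -0.25 to 1.53, is the widest.

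The outcome for *Rel*, *Relb* and *Rela* depended on which WT library was used. Without the first WT RANKL library, the log2 differences were 1.17 for *Rel* (limma adjusted p = 0.0331), -0.68 for *Relb* (0.0374) and -0.34 for *Rela* (0.0356), so that 3 of the 10 genes passed, together with 3991 genes overall. Without the second WT RANKL library, the log2 differences were 0.11 for *Rel* (limma adjusted p = 0.447), -0.063 for *Relb* (0.681) and 0.11 for *Rela* (0.207), and none of the 10 genes passed, *Nfkb1* (-0.36) and *Map3k14* (0.60) having an adjusted p of 0.0518 each. In both fits the remaining WT library was assumed to vary like the *Jmjd6*-/- pair, which lay close together. The direction of the calls over all genes turned as well, from 82 higher and 290 lower in *Jmjd6*-/- stroma to 2254 higher and 1737 lower without the first WT library and to 208 higher and 149 lower without the second. The 2 WT RANKL libraries differed, second minus first, by -1.06 on the log2 scale for *Rel*, 0.61 for *Relb* and 0.45 for *Rela*, against -0.08, -0.18 and 0.01 between the *Jmjd6*-/- RANKL libraries. In 8 of the 10 genes the WT pair differed more than the *Jmjd6*-/- pair.

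The WT difference moved with the GC content of the transcripts. Genes averaging 1 FPKM or more and with a known GC content were put into 10 equal bins of it. The median log2 difference between the WT RANKL libraries went from -0.37 in the lowest bin to 0.27 in the highest. That of the *Jmjd6*-/- pair stayed between -0.013 and 0.0076 in all bins. Among the 10 genes, *Rel* (GC content 42.5%) and *Nfkb1* (44.9%) were lower in the second WT library, and *Bcl3* (62.6%) was higher by 0.74. When each library was corrected for its GC and length trend, a setting added after the data had been seen, the same 6 genes passed the test for RANKL, with log2 changes from 0.78 for *Nfkb2* to 1.38 for *Nfkbie*, and none of the 10 passed between genotypes. The change was smaller than without the correction for *Nfkb2*, *Relb*, *Nfkbia* (0.92 against 1.14), *Nfkbie* and *Bcl3*, and larger for *Tnfaip3* (0.96 against 0.87). The part of GC content in the difference of any single gene was not tested.

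**Figure D5:**
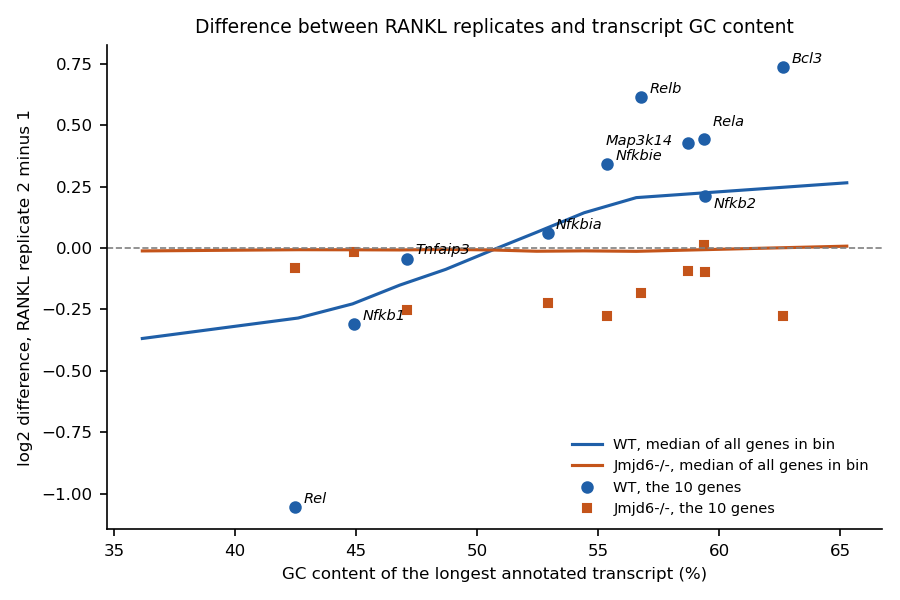
Log2 difference between replicate 2 and replicate 1 of the RANKL libraries (vertical axis) against the GC content of the transcript in percent (horizontal axis), for WT (blue, circles) and *Jmjd6*-/- (orange, squares) stroma. Lines are medians of 10 equal bins of the genes averaging 1 FPKM or more and points are the 10 genes: the WT line goes from -0.37 to 0.27, and *Rel* lies lowest at -1.06.

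Other genes of the pathway were described by lists, and their counts stand beside the 10.5% of all genes called higher and the 4.11% called lower with RANKL. Of 18 further IκB proteins and inhibitors, 3 rose with RANKL, none fell and 15 did not pass, a share of 16.7% higher, with a median log2 change of 0.03. *Tnip1*, whose product binds A20, was at 21.8 and 20.7 FPKM without RANKL and between 45.0 and 59.4 FPKM with RANKL, and it rose by 1.33 on the log2 scale (limma adjusted p = 0.00119). *Nfkbid*, which encodes another nuclear IκB protein, rose by 0.80, and *Tnip3* rose by 1.86 at a mean of 0.446 FPKM. Of 28 kinases and adaptors, 4 rose (14.3%) and none fell, with a median log2 change of 0.03. These were *Traf1*, at 0.494 and 0.599 FPKM without RANKL and between 6.19 and 8.61 FPKM with it, with a log2 change of 3.51, the ubiquitin ligase genes *Birc3* (0.98) and *Traf2* (0.46), and the kinase gene *Ikbke* (0.88). The genes of the IκB kinase complex, *Chuk*, *Ikbkb* and *Ikbkg*, were among the 24 that did not pass. No gene of either list passed the test between genotypes.

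Of 16 receptor and ligand genes tested, 7 rose with RANKL (43.8%) and none fell, with a median log2 change of 0.67. *Tnfrsf11a*, the gene of the RANKL receptor RANK, was at 1.84 and 2.41 FPKM without RANKL and between 12.6 and 16.1 FPKM with it, a log2 change of 2.70. *Tnfrsf11b*, which encodes the decoy receptor for RANKL, was at 0.0766 and 0.148 FPKM without RANKL and between 13.4 and 26.8 FPKM with it. *Cd40* and *Tlr3* rose by 1.88 and 0.77 on the log2 scale, and the other rising genes, *Tnfrsf13c*, *Ltb* and *Tnfsf11*, had means below 1 FPKM. None of these genes passed between genotypes.

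Of 39 known NF-κB target genes tested, 20 rose with RANKL (51.3%), 18 did not pass and *Cd83* fell, by 0.42 on the log2 scale, with a median log2 change of 0.70. The largest log2 changes were those of *Ptgs2* (4.99), which encodes cyclooxygenase-2, the chemokine genes *Ccl20* (4.47) and *Ccl22* (3.60), and *Nos2* (3.88), which encodes inducible nitric oxide synthase. Between genotypes 5 target genes (12.8%, against 1.82% of all genes) were lower in *Jmjd6*-/- stroma under RANKL and none was higher. *Ccl19*, a chemokine gene, was at 32.2 and 47.3 FPKM in WT and at 7.33 and 4.73 FPKM in *Jmjd6*-/- stroma (log2 difference -2.71, limma adjusted p = 0.0280). *Saa3*, which encodes a serum amyloid A protein, was at 17.9 and 23.2 FPKM in WT and at 2.41 and 1.72 FPKM in *Jmjd6*-/- stroma (log2 difference -3.26, limma adjusted p = 0.0260). The others, named after their values were seen, were *Cxcl13* (-2.26), *Ccl17* (-1.95, mean 0.409 FPKM) and the matrix protease gene *Mmp9* (-1.08). Without RANKL, all 5 also stood lower in the *Jmjd6*-/- than in the WT library. In WT and *Jmjd6*-/- order, values were 2.94 and 1.89 FPKM for *Ccl19*, 5.14 and 2.12 for *Saa3* and 26.5 and 4.75 for *Cxcl13*. *Ccl17* was at 0.184 and 0 FPKM and *Mmp9* at 13.8 and 10.3 FPKM. *Cxcl13* and *Saa3* did not pass the test for RANKL (limma adjusted p = 0.151 and 0.193).

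Markers of several cell types moved with RANKL, and their counts, too, stand beside the 10.5% and 4.11% of all genes called higher and lower with RANKL and the 1.82% called lower in *Jmjd6*-/- stroma. Of 7 mTEC markers, 5 rose and none fell, with summed levels of 1642 and 2080 FPKM in unstimulated WT and *Jmjd6*-/- stroma, 1195 to 1721 FPKM in WT with RANKL and 2090 to 2102 FPKM in *Jmjd6*-/- with RANKL. Most of each sum was *Krt5*, so the sums do not show the 5 rising markers. *Krt5* was at 1548 and 1977 FPKM without RANKL, 1006 and 1471 FPKM in WT with RANKL and 1887 and 1879 FPKM in *Jmjd6*-/- with RANKL. It did not pass with RANKL (log2 change -0.21, limma adjusted p = 0.469). Of 7 markers of cortical thymic epithelial cells, 3 fell and none rose, with summed levels of 14525 and 13763 FPKM without RANKL and 8965 to 10903 FPKM with RANKL. Of 5 neutrophil markers tested, 4 rose with RANKL and 2 were lower in *Jmjd6*-/- stroma. Their summed levels were 1.93 and 8.45 FPKM without RANKL, 111.8 and 171.6 FPKM in WT with RANKL and 84.7 and 96.1 FPKM in *Jmjd6*-/- with RANKL. The 2 lower genes, *Mpo* and *Ngp*, averaged 0.472 and 0.599 FPKM. The sums with RANKL came mostly from *S100a8* (98.2 and 141.0 FPKM in WT, 58.5 and 65.5 FPKM in *Jmjd6*-/-) and *S100a9* (10.4 and 25.5 FPKM in WT, 25.7 and 30.2 FPKM in *Jmjd6*-/-). Neither *S100a8* nor *S100a9* passed between genotypes. Of 7 endothelial markers, 3 fell with RANKL and 2 were lower in *Jmjd6*-/- stroma, with sums of 36.9 and 12.8 FPKM without RANKL, 19.8 and 26.7 FPKM in WT with RANKL and 8.13 and 7.74 FPKM in *Jmjd6*-/- with RANKL. Of 8 macrophage markers 1 rose and 2 fell, with sums between 624.6 and 832.4 FPKM in all libraries. Of 7 osteoclast markers 2 rose with RANKL and 1 was lower in *Jmjd6*-/- stroma, with sums of 22.5 to 29.8 FPKM without and 39.3 to 74.6 FPKM with RANKL. The rising genes were *Ctsk* and *Mmp9*, and *Mmp9* was also the lower one. *Mmp9* was at 13.8 and 10.3 FPKM without RANKL, 48.3 and 54.1 FPKM in WT with RANKL and 23.7 and 24.7 FPKM in *Jmjd6*-/- with RANKL. *Calcr*, *Oscar*, *Ocstamp* and *Dcstamp* were under 0.5 FPKM in every library, and *Acp5* did not pass with RANKL (log2 change -0.03).

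Of 8 mesenchymal markers 1 rose with RANKL and 2 were lower in *Jmjd6*-/- stroma, with sums of 768.3 and 369.6 FPKM without RANKL, 809.0 to 840.7 FPKM in WT with RANKL and 463.9 to 496.4 FPKM in *Jmjd6*-/- with RANKL. Of 6 mast cell markers tested none passed with RANKL and 3 were lower in *Jmjd6*-/- stroma, *Mcpt1* (-4.94), *Mcpt2* (-4.60) and *Mcpt4* (-3.51). The sums were 4.12 and 2.03 FPKM without RANKL, 23.6 and 12.8 FPKM in WT and 5.06 and 4.28 FPKM in *Jmjd6*-/- with RANKL. Most of the sums in *Jmjd6*-/- with RANKL was *Kit* (4.86 and 3.81 FPKM), which did not pass between genotypes (-0.0062). Of 9 T cell markers 7, *Cd3d*, *Cd3e*, *Cd3g*, *Cd8a*, *Cd8b1*, *Ptcra* and *Rag1*, were under 0.5 FPKM in every library. *Cd4* was at 0.332 and 1.28 FPKM without RANKL and at 0.419 and 1.45 FPKM in WT with RANKL. In *Jmjd6*-/- with RANKL *Cd4* was at 0.752 and 0.715 FPKM, and it did not pass with RANKL (log2 change 0.16, limma adjusted p = 0.871). Of the 3 T cell markers tested, *Lck*, which encodes a kinase of T cell receptor signalling, rose by 1.12 on the log2 scale with RANKL (limma adjusted p = 0.0226). It was at 0.610 and 0.390 FPKM without RANKL, at 1.91 and 1.71 FPKM in WT with RANKL and at 0.728 and 0.797 FPKM in *Jmjd6*-/- with RANKL, with a log2 difference between genotypes of -1.15 (limma adjusted p = 0.0765). *Cd79b*, a subunit of the B cell receptor, rose by 1.17 on the log2 scale (limma adjusted p = 0.0496), from 0.392 and 0.383 FPKM to 1.14 and 1.46 FPKM in WT and to 1.02 and 0.570 FPKM in *Jmjd6*-/- stroma. Of the dendritic cell markers, 1 of 3 tested rose, *Siglech* was listed at 0 in all libraries, and the sums were at most 8.05 FPKM. *Tnfrsf11a* is on both the receptor and the mTEC list, and *Mmp9* on both the target and the osteoclast list. The part of these cell types in the changes of the NF-κB genes was not tested.

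Among genes averaging 1 FPKM or more, those whose profile over the 6 libraries lay closest to that of *Nfkbie*, the gene with the largest RANKL effect, were *Mvd*, *S100a16*, *Tlcd2*, *Gm14446* and *Anpep*. Their root mean square distance from *Nfkbie* on the centred log2 scale was between 0.123 and 0.141. *Mvd*, which encodes an enzyme of cholesterol synthesis, was at 5.68 and 5.65 FPKM without RANKL, at 15.0 and 21.4 FPKM in WT with RANKL and at 16.4 and 15.1 FPKM in *Jmjd6*-/- with RANKL. As with *Nfkbie*, its second WT RANKL library was the highest of the 6.

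The κB matches shown above were set beside the response to RANKL. Of the 5 rising genes with a promoter window, *Nfkb2*, *Nfkbia*, *Nfkbie* and *Tnfaip3* held a match and *Bcl3* did not. Of the 3 genes with a window that did not pass the test, *Rel* held a match and *Rela* and *Map3k14* did not. Among the other genes tested, 187 of 1190 that were higher with RANKL held a match, or 15.7%, against 1060 of 10382 that were not, or 10.2%. No test was run on these shares, and the GC content of the windows was not matched.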

How the data were processed

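RNA-seq of 6 libraries of 2-DG-treated fetal thymic stroma was analysed. The authors purified poly-A RNA, mapped the reads to mm10 with TopHat2 2.0.10 and computed FPKM per gene with Cufflinks 2.1.1, and these FPKM values were used as deposited. Library type was set to strand-specific although the preparation named keeps no strand. Groups came from the titles, since another field of the labels names RANKL for unstimulated libraries too.

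With limma 3.58.1 in R 4.3.3, log2(FPKM + 0.1) was fitted over the 15894 genes averaging 0.1 FPKM or more, using a mean-variance trend and two-sided, Benjamini-Hochberg adjusted tests. RANKL was tested over all 6 libraries with genotype as a term, and genotypes under RANKL and the interaction in a model of the 4 conditions. Depth was estimated from the steps between FPKM values below 0.15, and the fragments behind a value of the 10 genes were at least 203. Read counts were not used here.

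All 10 genes were named, with *Jmjd6* and *Aire* as checks. From each pathway list up to 4 genes with the largest change with RANKL among those that passed and averaged 1 FPKM or more were named, plus up to 2 in the other direction or between genotypes, and the 5 genes closest to the profile of the member with the largest RANKL effect. The genes and lists were chosen with earlier results of these data known, so their counts are descriptions. Alternatives were added constants of 1 and 0.01, no filter or a mean of 1 FPKM, no trend, 2 scalings, leaving out each library, the replicate number as a block, a four-condition model for RANKL and, added after seeing the data, removal of the GC and length trend. Of 1 further marker list only the gene that passed is reported here.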

Additional observations from a re-analysis of the deposited data

How the results depend on the processing

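For RANKL, 6 of the 10 genes passed in every alternative other than no filter (4) and leaving out single libraries (3 to 6), the low values being those without an unstimulated library. Of all genes, 2329 passed, against 1087 with no filter, 4216 with the GC and length trend removed (1839 higher and 2377 lower, against 1675 and 654) and 677 to 3643 with a library left out. Both scalings kept the directions of the 10 genes with RANKL. Between genotypes 372 genes passed, against 241 with an added constant of 0.01, 2 with no filter, 231 at a mean of 1 FPKM, 891 with the GC and length trend removed (286 higher and 605 lower, against 82 and 290) and 88 to 3991 with a library left out. Of the 10 genes, 0 to 3 passed with a library left out. For the interaction 0 genes passed, against 176 with no filter and 0 to 5 with a library left out. The cause of these shifts was not tested.

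The sign turned between genotypes for *Nfkbia* scaled by the median ratio (-0.013) and for *Nfkb2* (0.055) and *Bcl3* (0.10) with the GC and length trend removed. With a library left out, log2 values between genotypes spanned 0 for *Nfkb2* (-0.11 to 0.10), *Nfkbia* (-0.10 to 0.13), *Nfkbie* (-0.25 to 0.088), *Rela* (-0.34 to 0.11) and *Bcl3* (-0.41 to 0.32), and with RANKL for *Rel* (-0.37 to 0.14). Those of the interaction spanned 0 for *Nfkb1* (-0.25 to 0.057), *Rela* (-0.26 to 0.18), *Relb* (-0.42 to 0.20), *Rel* (-0.033 to 1.02), *Map3k14* (-0.026 to 0.40) and *Bcl3* (-0.17 to 0.56).

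Replicate numbers are shared by both genotypes, but same-numbered libraries did not deviate together (correlation -0.08). Whether they share more than a number is not known, as each genotype had only a pair. With the replicate number as a block, 6 of the 10 genes passed for RANKL and 0 between genotypes, and of all genes 1477 passed between genotypes and 94 for the interaction. FPKM values carry no counts, so the precision of low values was judged from estimated depth only.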
